A study of Mus musculus with 15 samples.

Results

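The lymphoid priming genes examined here were Flt3, Il7r, Notch1, Ikzf1, Tcf3, Bcl11a, Satb1, Dntt and Rag1, which are transcribed early on the route from hematopoietic stem cells (HSC) to B and T cells. They were chosen by name, and all 9 were present among the 16154 genes of the deposited count table. RNA was sequenced from HSC sorted from the bone marrow of C57BL/6 mice, with 1 library per mouse and 5 mice in each of 3 groups. Young mice were 6 to 12 weeks old, aged mice were 20 to 24 months old, and NR-treated aged mice of that same age range received nicotinamide riboside (NR), a precursor of NAD, at 3 mg/ml in their drinking water for 2 months. The comparisons ask how expression of these genes differed with age and whether it differed between aged HSC with and without NR. Young and aged mice received no NR, the labels name no transgene or deleted gene, and all mice were labelled female. HSC were Lin-Sca-1+cKit+CD150+CD48- cells, and the stated depletion of mature cells used B220, Mac-1, Gr-1 and Ter119.

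Total counts ranged from 2122221 to 3631395 in young, from 764119 to 13318989 in aged and from 2486399 to 3595384 in NR-treated aged libraries. All 12 HSC markers looked for were measured (among them Slamf1, which encodes CD150, Procr and Hlf), and their summed level lay between 1956 and 2907 CPM (counts scaled to TMM library sizes) in every library. Single markers differed between groups in the test described below, with 5 of the 12 higher and none lower in aged than in young HSC. With NR, 1 was lower and none higher than in aged HSC, and 3 were higher and none lower than in young HSC. Over all genes 19.3%, 8.07% and 4.47% were called in these comparisons, in this order. The young group differed within itself in a pair of ways that bear on the results. Young libraries 1 and 5 held 99.7 and 105 CPM of 4 Y-linked transcripts against 3.00 CPM or less in the other 13, which goes against their label. Young library 3 held 7705 CPM of neutrophil and monocyte markers and 847 CPM of B cell markers, against at most 1367 and 235 CPM in the other 4 young libraries. The comparisons were therefore repeated without libraries 1 and 5 and, a choice made after their values were seen, without libraries 3 and 4. Library 4 was next in level to library 3 for most of the B lineage transcripts given with Dntt and Rag1. Libraries 3 and 4 also held 89.6% of the Il7r and 94.3% of the Rag1 counts of young HSC, and the highest Satb1 levels. Leaving them out lowers the young level of such genes by construction. A lost call or turned sign there is therefore no independent check, and aged libraries 3 and 4 were not left out together.

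Lymphoid fate is prepared in stages. Multipotent progenitors raise Flt3, a receptor tyrosine kinase, as they lose self-renewal, and common lymphoid progenitors add the interleukin 7 receptor, while Notch1 is the receptor whose ligands direct cells in the thymus to the T lineage. The transcription factors Ikaros (Ikzf1), E2A (Tcf3), Bcl11a and the chromatin organiser Satb1 act upstream and are already transcribed in stem and progenitor cells, and the recombination enzymes Rag1 and terminal deoxynucleotidyl transferase (Dntt) come on once B and T cell progenitors assemble their antigen receptor genes.

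E2A proteins bind the E-box, a short DNA motif spelled CANNTG that reads the same pattern on both strands, and promoter sequences were read from RefSeq (build GRCm38.p6) for all 9 genes. The 250 bases before the RefSeq start are shown 5′ to 3′ for the members that fell in aged HSC and for both recombination enzymes, in lower case with each E-box in capitals. Satb1 also fell in aged HSC, but its sequence is not shown here.
Flt3, chr5:147400490-147400739, minus strand: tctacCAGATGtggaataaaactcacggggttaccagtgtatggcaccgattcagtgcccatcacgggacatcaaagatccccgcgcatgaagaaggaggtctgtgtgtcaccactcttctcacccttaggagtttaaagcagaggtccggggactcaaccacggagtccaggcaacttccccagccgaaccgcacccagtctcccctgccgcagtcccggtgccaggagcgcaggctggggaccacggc
Ikzf1, chr11:11685675-11685924, plus strand: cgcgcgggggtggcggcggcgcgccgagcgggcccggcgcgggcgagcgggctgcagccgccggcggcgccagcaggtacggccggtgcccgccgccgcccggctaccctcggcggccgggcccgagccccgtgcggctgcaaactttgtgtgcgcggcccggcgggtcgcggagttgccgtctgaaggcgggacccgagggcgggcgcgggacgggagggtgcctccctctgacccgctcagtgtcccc
Tcf3, chr10:80433636-80433885, minus strand: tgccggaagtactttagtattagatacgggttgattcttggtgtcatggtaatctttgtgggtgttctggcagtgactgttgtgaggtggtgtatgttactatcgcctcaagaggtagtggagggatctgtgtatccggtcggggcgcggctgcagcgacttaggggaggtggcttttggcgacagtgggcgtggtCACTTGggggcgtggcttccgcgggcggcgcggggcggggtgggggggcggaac
Dntt, chr19:41029025-41029274, plus strand: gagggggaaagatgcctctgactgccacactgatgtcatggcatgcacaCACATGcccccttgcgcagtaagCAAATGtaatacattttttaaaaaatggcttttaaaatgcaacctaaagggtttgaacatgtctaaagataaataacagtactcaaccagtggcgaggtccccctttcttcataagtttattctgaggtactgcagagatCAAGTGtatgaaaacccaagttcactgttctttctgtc
Rag1, chr2:101649533-101649782, minus strand: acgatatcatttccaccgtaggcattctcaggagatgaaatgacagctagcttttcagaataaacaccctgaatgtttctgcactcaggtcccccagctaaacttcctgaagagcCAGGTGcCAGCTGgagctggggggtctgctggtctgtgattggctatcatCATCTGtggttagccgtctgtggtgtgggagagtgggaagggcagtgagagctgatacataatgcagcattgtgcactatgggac
The windows of Dntt and Rag1 hold 3 E-boxes each, those of Flt3 and Tcf3 hold 1 each, and that of Ikzf1 holds none. Of the windows not shown, that of Il7r also holds 3, that of Bcl11a 1 and that of Notch1 none. The windows of Satb1 hold 0, 0, 2, 0 and 1, and a further window of Ikzf1 holds none. Of 32851 such windows of the table, 66.2% hold at least 1 E-box and the median is 1. The Rag1 window also holds the form CAGGTG, which is 1 of its 3 E-boxes and which stands in 17.2% of all windows on either strand. These are matches of letters, and binding was not measured.

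Between young and aged HSC, 4 of the 9 genes were lower in aged HSC and none was higher, at an adjusted p under 0.05 (edgeR quasi-likelihood test, p-values adjusted by Benjamini-Hochberg across the 16154 genes). In the same fit 19.3% of all genes were called, and 9.63% were called lower. With library totals in place of TMM sizes, 15.4% of all genes were called lower and 6.31% higher, the median of all genes moved from -0.03 to -0.16, and Rag1 was called lower in addition. The genes that fell were Flt3, Satb1, Ikzf1 and Tcf3. The young and aged groups did not overlap for Flt3, Satb1 and Ikzf1, which was the case for 12.4% of all genes. The median log2 fold change over the 9 genes was -0.63, beside -0.03 over all genes. Without young libraries 3 and 4, 2 of the 9 genes were called, Flt3 and Ikzf1. Calls over all 16154 genes then also fell, from 3120 to 1875.

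Between aged and NR-treated aged HSC, 0 of the 9 genes were called by the same test, while 8.07% of all genes were called. With library totals the median of all genes moved from 0.02 to 0.16, and 0 members were called. The log2 fold change was above 0 for 5 members (Flt3, Satb1, Ikzf1, Tcf3 and Bcl11a) and below 0 for 4 (Dntt, Il7r, Notch1 and Rag1). At an unadjusted p under 0.05, a level reached by 25.1% of all genes, stood 1 member, Dntt, which was also the 1 call made by the edgeR likelihood ratio test and by DESeq2, while limma-voom made 0. Between young and NR-treated aged HSC, 2 of the 9 were called, Flt3 and Dntt, both lower in NR-treated aged than in young HSC, beside 4.47% of all genes called and 1.91% called lower. The comparisons share samples, since the aged group enters both the age and the NR comparison and the young group enters both comparisons with young HSC.

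**Figure D1:**
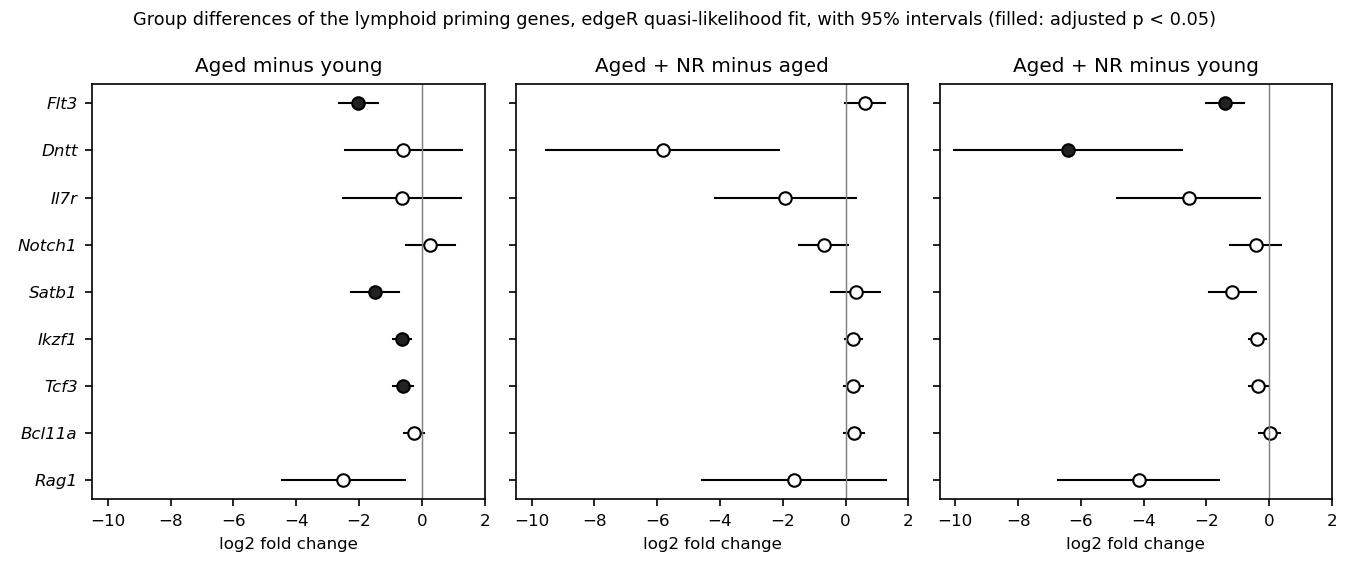
Log2 fold changes of the 9 lymphoid priming genes in the 3 comparisons (x axis), with 95% intervals as lines and genes at an adjusted p under 0.05 as filled points. Flt3, Satb1, Ikzf1 and Tcf3 lie below 0 in aged minus young HSC, no point is filled in NR-treated aged minus aged HSC, and the position of Dntt in both comparisons with NR rests on a group at 0 counts and is no measure of size.

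Flt3 (chr5:147330741-147400489 on GRCm38) showed the lowest adjusted p of the 9 with age. It was at 11.2, 18.1, 13.9, 19.6 and 9.71 CPM in young libraries 1 to 5, at 2.89, 1.30, 3.38, 4.80 and 3.82 CPM in aged libraries and at 2.82, 5.96, 7.78, 4.75 and 5.99 CPM in NR-treated aged libraries. Every young library lay above every aged library, with or without NR, and the aged and NR-treated ranges overlapped. Separation of NR-treated from young libraries was seen for 4.74% of all genes. The means were 14.5 ± 4.26, 3.24 ± 1.29 and 5.46 ± 1.83 CPM (SD, n = 5 each). Flt3 fell by 2.03 on the log2 scale in aged HSC (SE 0.30, 95% interval -2.65 to -1.40, edgeR adjusted p = 0.000107), 4.08-fold lower. In NR-treated aged HSC it stood 0.62 above aged HSC (SE 0.31, interval -0.03 to 1.27, edgeR adjusted p = 0.224) and at -1.41 against young HSC (SE 0.29, adjusted p = 0.00670). The aged libraries held 1 to 40 Flt3 counts each, and the single count was in the shallowest library, aged 2. Flt3 kept its call with age without young libraries 3 and 4, at -1.86 (edgeR adjusted p = 0.00129), whereas its difference between NR-treated and young HSC was then -1.25 with an adjusted p of 0.0560, and after thinning all libraries to the smallest total it was -1.26 (adjusted p = 0.136). In these sorted populations fewer cells with a transcript and less of it per cell cannot be told apart.

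Il7r (chr15:9505788-9530176), the receptor chain that binds interleukin 7, was near the limit of detection. Its counts in replicates 1 to 5 were 2, 0, 42, 18 and 5 in young, 4, 0, 78, 38 and 2 in aged and 0, 2, 0, 3 and 9 in NR-treated aged libraries. In CPM, the level was 18.9 in young 3 and 6.53 in young 4, 6.59 in aged 3 and 6.76 in aged 4, and 2.45 or less in each of the other 11 libraries. Young libraries 3 and 4 held 89.6% of the Il7r counts of young HSC, and aged libraries 3 and 4 held 95.1% of those of aged HSC. No comparison passed the test. The log2 fold change was -0.64 (SE 0.90, edgeR adjusted p = 0.667) in aged against young, -1.92 (SE 1.08, adjusted p = 0.275) in NR-treated against aged, and -2.56 (SE 1.09, adjusted p = 0.215) in NR-treated against young HSC. Without young libraries 3 and 4 the age difference was 2.12 (edgeR adjusted p = 0.225), with the sign turned. Aged libraries 3 and 4 were kept in that fit, so the turned sign follows from an omission on the young side only.

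Notch1 (chr2:26457903-26516663) was measured at 3.86, 3.62, 8.53, 4.72 and 1.62 CPM in young, 4.62, 6.49, 6.17, 4.62 and 4.82 CPM in aged, and 2.26, 2.68, 4.67, 1.83 and 4.63 CPM in NR-treated aged libraries. The young libraries spanned both other groups. Notch1 was not called with age, at 0.26 (SE 0.38, 95% interval -0.52 to 1.05, edgeR adjusted p = 0.673), or with NR, at -0.70 (SE 0.38, interval -1.49 to 0.09, edgeR adjusted p = 0.258). All 5 NR-treated libraries lay below the aged mean of 5.34 CPM, and 2 of them, replicates 3 and 5, overlapped the aged range. Its exons share 414 bases with Gm13568 on the opposite strand, a gene at 1.27 CPM. They also share 1068 bases with 0610009E02Rik on the opposite strand, which is not among the genes of the deposited counts.

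**Figure D2:**
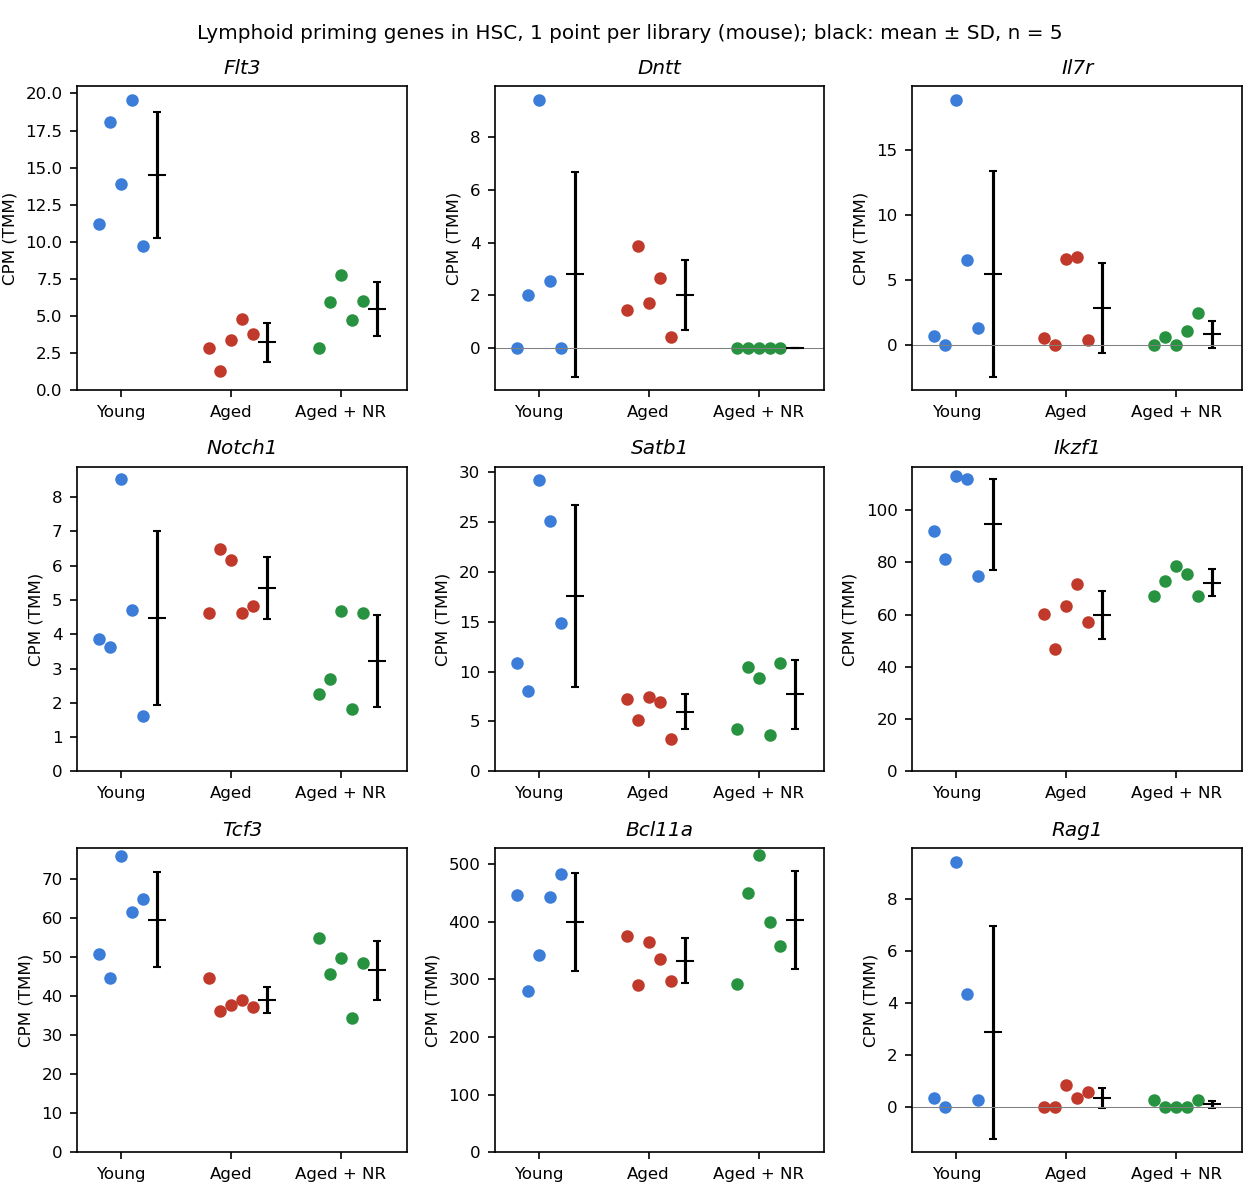
Levels of the 9 genes in CPM with TMM library sizes (y axis, a separate linear scale for each gene), 1 point per library in replicate order, with black bars for the mean ± SD of the 5 libraries of a group. Flt3, Satb1 and Ikzf1 are higher in all 5 young libraries than in any aged library, Bcl11a overlaps between all groups, and Dntt is at 0 in the 5 NR-treated aged libraries.

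Of the transcription factors, Ikzf1 (chr11:11685003-11772926), which encodes the zinc finger protein Ikaros that lymphoid development requires, was at 91.9, 81.2, 113, 112 and 74.7 CPM in young and at 60.4, 46.7, 63.4, 71.8 and 57.0 CPM in aged libraries. With NR it was at 66.9, 72.7, 78.6, 75.6 and 67.3 CPM. The lowest young library lay above the highest aged one by a narrow margin, and the NR-treated libraries fell across that gap. Ikzf1 fell by 0.63 with age (SE 0.13, 95% interval -0.91 to -0.36, edgeR adjusted p = 0.00245), 1.55-fold lower. With NR it was at 0.25 against aged HSC (SE 0.13, interval -0.03 to 0.52, edgeR adjusted p = 0.249), with all 5 libraries above the aged mean, and at -0.39 against young HSC (SE 0.13, adjusted p = 0.103), with all 5 below the young mean. The age difference lost its call when all libraries were thinned to the smallest total (-0.52, edgeR adjusted p = 0.0592), and without young libraries 3 and 4 it was -0.43 (adjusted p = 0.0385).

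Tcf3 (chr10:80409514-80433647) encodes the E2A proteins E12 and E47, which open the B cell programme. It was at 50.9, 44.6, 75.9, 61.7 and 65.0 CPM in young, at 44.8, 36.3, 37.9, 38.9 and 37.2 CPM in aged and at 54.8, 45.6, 49.8, 34.3 and 48.5 CPM in NR-treated aged libraries. Young library 2 lay just under aged library 1, the only overlap between young and aged. Tcf3 fell by 0.60 in aged HSC (SE 0.15, 95% interval -0.91 to -0.29, edgeR adjusted p = 0.00825), 1.52-fold lower. With NR, 4 of 5 libraries were above the aged mean and the difference was 0.25 (SE 0.15, interval -0.06 to 0.56, edgeR adjusted p = 0.305). Against young HSC it was -0.35 (SE 0.15, edgeR adjusted p = 0.204). Without young libraries 3 and 4 the age difference was -0.45 and no longer passed (adjusted p = 0.0796).

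Satb1 (chr17:51736187-51833290), a chromatin organiser of lymphoid gene programmes, varied between young libraries. Its level was 10.9, 8.04, 29.2, 25.0 and 14.8 CPM in young, 7.23, 5.19, 7.44, 6.93 and 3.21 CPM in aged, and 4.24, 10.4, 9.33, 3.65 and 10.9 CPM in NR-treated aged libraries. All young libraries exceeded all aged ones, and young 3 and 4 were the highest of the 15. Satb1 fell by 1.49 with age (SE 0.36, 95% interval -2.25 to -0.73, edgeR adjusted p = 0.00755), 2.82-fold lower. Without young libraries 3 and 4, an omission of its highest levels, the difference was -0.87 and did not pass (edgeR adjusted p = 0.132). NR-treated HSC were at 0.32 against aged HSC (SE 0.37, interval -0.46 to 1.10, edgeR adjusted p = 0.630) and at -1.17 against young HSC (SE 0.36, adjusted p = 0.0720). Satb1 exons share 156 bases with Gm36931 on the same strand and 128 with Gm6934 on the opposite strand. Neither is among the genes of the deposited counts.

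Bcl11a (chr11:24078056-24174123), which encodes a zinc finger repressor required for lymphoid progenitors, was not called in any comparison. It had 224 to 4313 counts per library, and 316 of its exon bases lie opposite 4930538E20Rik, a gene at 1.42 CPM, whose reads cannot be told apart from its own unless strand was used. It was at 447, 279.7, 343, 443 and 482 CPM in young, at 375, 291, 365, 335 and 296 CPM in aged and at 292, 449.6, 516, 399 and 357 CPM in NR-treated aged libraries. The 3 ranges overlapped. The log2 fold change was -0.26 with age (SE 0.16, 95% interval -0.58 to 0.06, edgeR adjusted p = 0.252), 0.27 with NR (SE 0.15, interval -0.05 to 0.60, edgeR adjusted p = 0.280) and 0.01 between NR-treated and young HSC (SE 0.15, interval -0.31 to 0.33, edgeR adjusted p = 0.984).

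Dntt (chr19:41029275-41059525), the polymerase that adds untemplated bases at V(D)J junctions, was counted 0, 5, 21, 7 and 0 times in young and 10, 3, 20, 15 and 2 times in aged libraries, and 0 times in each of the 5 NR-treated aged libraries. In CPM it was 0, 2.01, 9.43, 2.54 and 0 in young and 1.45, 3.89, 1.69, 2.67 and 0.402 in aged HSC. Both untreated groups thus held Dntt counts in 8 of 10 libraries, and NR-treated aged HSC in none. Taking 3 counts in each NR-treated library as the limit of a count of 0, Dntt was at least 2.09-fold lower than in aged and at least 2.90-fold lower than in young HSC. Without aged library 2, whose level rests on 3 counts, the first bound was 1.61-fold. Without young library 3 the second bound was 1.18-fold. The listed counts of the aged and NR-treated groups did not overlap, as was the case for 8.60% of all genes, but aged libraries 2 and 5 held 3 and 2 counts, which are not distinguishable from 0 by that limit. The edgeR quasi-likelihood test gave an adjusted p of 0.0510 (unadjusted p = 0.00424). By the same test the difference between NR-treated and young HSC passed (adjusted p = 0.0426), although 2 young libraries were also at 0 and it lost its call in 10 of the 15 fits that left out 1 library. With age Dntt was at -0.59 (SE 0.87, edgeR adjusted p = 0.690). Without young library 3 this value was 0.69.

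Rag1 (chr2:101638282-101649501), the recombinase that cuts at antigen receptor gene segments, was counted 1, 0, 21, 12 and 1 times in young, 0, 0, 10, 2 and 3 times in aged and 1, 0, 0, 0 and 1 times in NR-treated aged libraries. Only young 3, young 4 and aged 3 held more than 3 counts, at 9.43, 4.35 and 0.845 CPM. The log2 fold change was -2.51 in aged against young HSC (SE 0.94, 95% interval -4.47 to -0.55, edgeR adjusted p = 0.0657), -1.64 in NR-treated against aged HSC (SE 1.41, adjusted p = 0.490) and -4.15 in NR-treated against young HSC (SE 1.23, adjusted p = 0.0593). None passed. Without young libraries 3 and 4, which held 94.3% of the young counts, the first of these was 0.97 (edgeR adjusted p = 0.633). Without young libraries 1 and 5, which hold the Y-linked transcripts, it was -3.23 (edgeR adjusted p = 0.0236) and the third was -4.88 (adjusted p = 0.0169), and both passed. Rag1 shares 80 exon bases with B230118H07Rik on the same strand, a gene at 61.2 CPM, so that reads there cannot be assigned to either gene alone.

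Within the young group, libraries 3 and 4 were highest in Dntt, Il7r and Rag1 and also in the B lineage transcripts Ly6d, Vpreb3, Igll1, Pax5 and Ebf1, which were picked after their values were seen. This did not hold throughout, since young library 2 had Dntt at 2.01 CPM (5 counts) with Ly6d and Vpreb3 at 0. Aged library 2, the shallowest, had the highest Dntt level of its group, 3.89 CPM, with Ly6d at 1.30 CPM. These levels are 3 counts of Dntt and 1 of Ly6d, which are not distinguishable from 0 by the limit of 3 counts. Vpreb3 was at 31.4 CPM in young 3 and 10.5 CPM in young 4 and at 0.539 CPM or less in the other 3 young libraries. Igll1, which encodes a component of the surrogate light chain, stood at 11.7 and 3.27 CPM in young 3 and 4 and at 8.03 and 5.33 CPM in aged 3 and 4. Aged 3 and 4 were also highest of their group in Il7r, in Ly6d (26.5 and 20.3 CPM) and in Vpreb3 (14.5 and 10.1 CPM). Dntt, Rag1, Pax5 and Ebf1 did not follow there. Rag1 was at 0.356 CPM in aged 4 and 0.603 CPM in aged 5, and Ebf1 at 10.5 CPM in aged 3 and 11.7 CPM in aged 2. Ebf1 and Pax5, which fix B cell identity, reached 34.1 and 10.8 CPM in young 3 and 19.2 and 11.2 CPM in young 4. Over the 11 B cell markers measured of 13 listed, the summed level ranged from 107 to 847 CPM in young, from 605 to 4254 CPM in aged and from 91.8 to 165 CPM in NR-treated aged libraries. With age 2 of the 11 markers rose, and with NR 6 of the 11 fell against aged HSC, beside 19.3% and 8.07% of all genes called. The part of such transcripts in the levels of Dntt, Il7r and Rag1 was not tested.

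**Figure D3:**
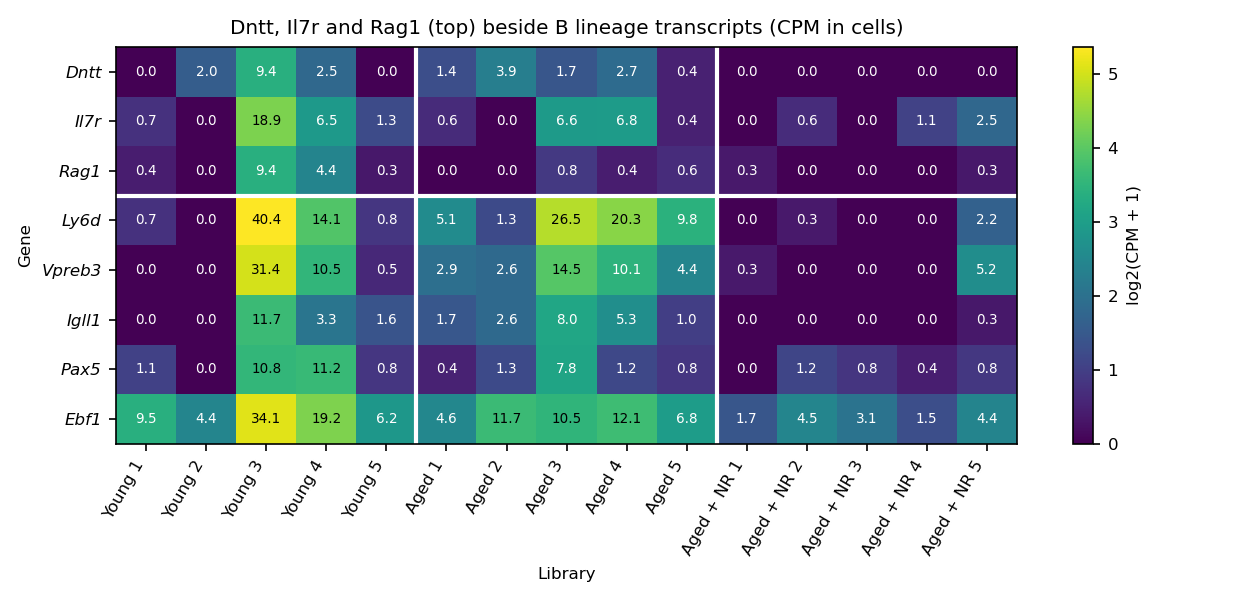
Levels of Dntt, Il7r and Rag1 (top rows) and of 5 B lineage transcripts (lower rows) in each of the 15 libraries (x axis), with CPM printed in the cells and colour for log2(CPM + 1). Young 3 and young 4 hold most of the signal of the young group, and aged 3 and aged 4 stand out for Il7r, Ly6d, Vpreb3 and Igll1. The top rows are at 2.45 CPM or less in the NR-treated aged libraries.

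Other mature blood markers also differed between the groups. The 10 neutrophil and monocyte markers summed to 413 to 7705 CPM in young, 1809 to 2948 CPM in aged and 305 to 631 CPM in NR-treated aged libraries, with Cd177 at 0 in all of the last. The 9 erythroid markers summed to 154 to 2666, 3217 to 6519 and 80.7 to 579 CPM, with none at 0 throughout a group. With age none of the 10 neutrophil and monocyte markers was called and 3 of the 9 erythroid markers were higher, beside 19.3% of all genes called. With NR 7 of the 10 and 8 of the 9 fell against aged HSC, beside 8.07% of all genes called. The part of these markers in the values of the members was not tested.

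The wider lymphoid pathways were followed in 8 lists holding 112 other genes, of which 103 were measured. With age 29 of the 103 (28.2%) were called, 15 higher and 14 lower, with NR 15 (14.6%) were called against aged HSC, 3 higher and 12 lower, and 10 (9.71%) were called between NR-treated and young HSC, 4 higher and 6 lower. The background shares of all genes were 19.3%, 8.07% and 4.47%. The split by direction depended on the scaling, with 8 higher and 19 lower with age and 11 higher and 10 lower with NR against aged HSC when library totals were used, and 6 and 6 in the latter with at least 10 counts in every library. The median log2 fold change of the lists was -0.01, -0.11 and -0.14 in this order, beside -0.03, 0.02 and -0.0046 over all genes.

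In cytokine receptor signalling, 3 of 9 measured genes rose and 1 fell with age. Il2rg, the common chain that pairs with the interleukin 7 receptor, was at 89.2 to 149 CPM in young and 178 to 272 CPM in aged libraries (log2 fold change 0.94, edgeR adjusted p = 0.000119). The kinase Jak1, which signals from that receptor, rose by 0.34 (adjusted p = 0.0449, but 0.223 with library totals), and its target Stat5b fell by 0.55 (adjusted p = 0.00370). With NR, Jak1 fell by 0.39 against aged HSC (edgeR adjusted p = 0.0438, but 0.192 with library totals), while Il2rg was 0.77 higher than in young HSC (adjusted p = 0.00227). Of 12 V(D)J recombination genes, 1 rose and 1 fell with age and none was called with NR. The gene that fell was Xrcc5, the end-joining protein Ku80, by 0.46 (adjusted p = 0.0478).

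In the Notch pathway, 3 of 28 measured genes rose and 2 fell with age. The ligand Jag1 was at 6.47 to 11.3 CPM in young and 21.1 to 28.5 CPM in aged libraries (1.53, edgeR adjusted p = 0.000142), and the protease Adam10, which cleaves Notch receptors, rose by 0.41 (adjusted p = 0.0410, but 0.142 with library totals). The coactivator Maml3 fell by 0.71 (adjusted p = 0.00663). With NR 1 gene of the list was called against aged HSC, Adam10, which fell by 0.50 (edgeR adjusted p = 0.0332, but 0.0996 with library totals), and Jag1 was 1.20 higher than in young HSC (adjusted p = 0.00400). Among the 4 relatives of Ikzf1, Ikzf2 (Helios) fell from 111 to 135 CPM in young to 59.6 to 77.0 CPM in aged libraries (-0.87, edgeR adjusted p = 0.000335), 1 rose, and none was called with NR.

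Of the 9 E proteins and their partners, 1 rose and 2 fell with age. Id2, an inhibitor that binds E proteins and keeps them off DNA, was at 11.7 to 44.0 CPM in young and 50.8 to 77.7 CPM in aged libraries (1.53, edgeR adjusted p = 0.000853). Tcf12, the E protein HEB, fell by 0.76 (adjusted p = 0.00621), and Tal1, an E protein partner in stem cells, fell by 0.67 (adjusted p = 0.00432). With NR, Tcf12 was at 68.6 to 113 CPM against 29.8 to 76.4 CPM in aged HSC and rose by 0.66 (edgeR adjusted p = 0.0315).

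Of 24 other lymphoid transcription factors, 4 rose and 5 fell with age. Gata3, a T lineage factor, rose by 1.02 (edgeR adjusted p = 6.02e-06), Tox by 1.22 (adjusted p = 0.000115) and Ets1 by 0.85 (adjusted p = 0.0233, but 0.0535 with library totals). Runx3 fell by 1.25 (edgeR adjusted p = 0.000262), Myb by 1.13 (adjusted p = 0.00302) and Sox4 by 0.77 (adjusted p = 0.00922). With NR 1 rose and 3 fell against aged HSC. Runx3 rose by 0.77 (edgeR adjusted p = 0.0257), whereas Gata3 fell by 0.51 (adjusted p = 0.0129), Ets1 by 1.03 (adjusted p = 0.0198) and Irf8, a factor of B cells and mononuclear phagocytes, by 2.68 (adjusted p = 0.0280). Irf8 was at 14.5 to 63.3 CPM in aged and 2.72 to 12.0 CPM in NR-treated aged libraries. Gata3 with NR was 0.51 higher than in young HSC (edgeR adjusted p = 0.0141).

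Among 16 early lymphoid surface and signalling genes, 2 rose and 2 fell with age. Cd34, a surface protein of progenitors, went from 149 to 223 CPM in young to 67.5 to 78.9 CPM in aged libraries (-1.26, edgeR adjusted p = 3.08e-07), and Cd27 fell by 0.49 (adjusted p = 0.0103), while Cd24a and Emb rose by 0.53 and 0.59 (adjusted p = 0.00353 and 0.0312, the latter 0.0870 with library totals). With NR 1 rose and 6 fell against aged HSC. Cd27, which rose by 0.56 (edgeR adjusted p = 0.0119), was at 106 to 126 CPM with NR and 66.5 to 88.7 CPM without. Cd52 fell by 2.77 (edgeR adjusted p = 0.00866) and Cd48 by 2.83 (adjusted p = 0.00776). Both are also transcribed in mature leukocytes, and CD48 protein was a marker the sort selected against. Cd34 with NR was at -1.16 against young HSC (edgeR adjusted p = 1.73e-06).

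**Figure D4:**
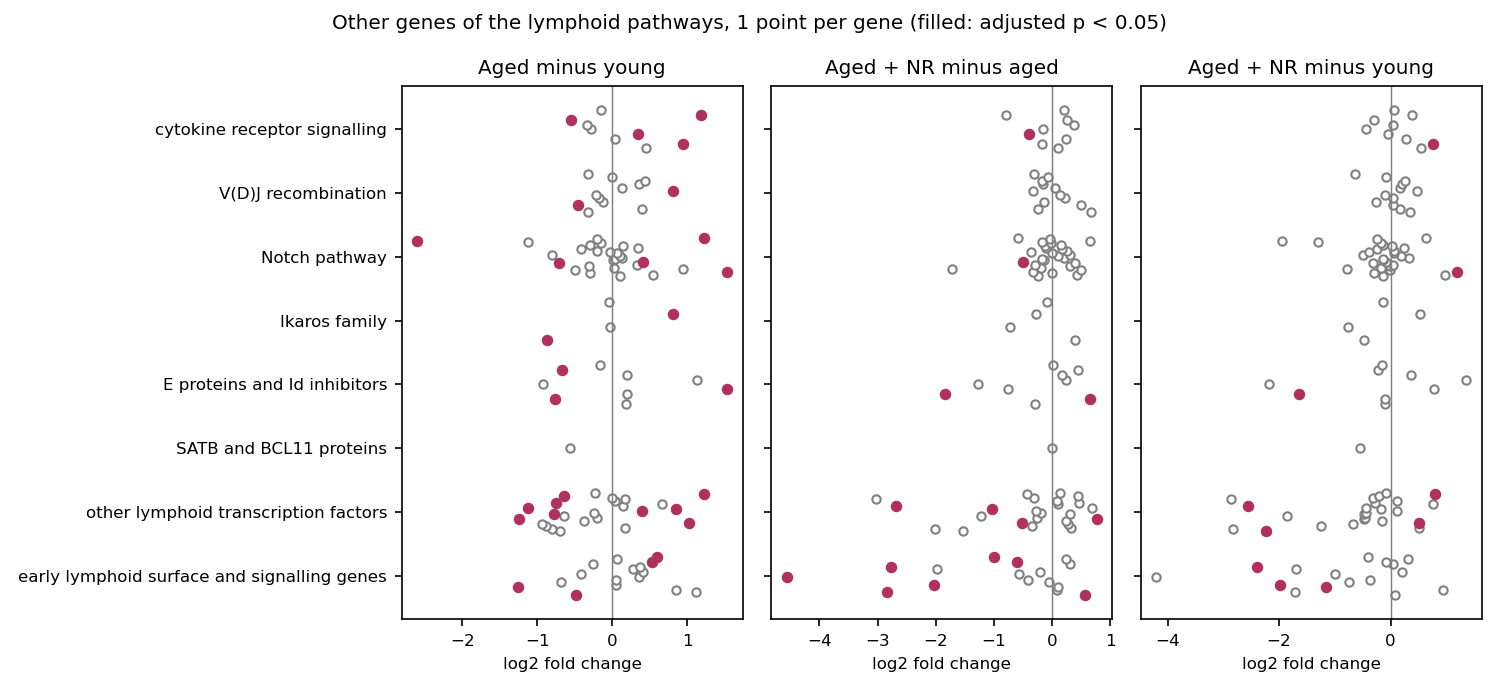
Log2 fold changes (x axis) of the other genes of the 8 lymphoid lists in the 3 comparisons, 1 point per gene, filled at an adjusted p under 0.05. With TMM sizes, as drawn, 15 filled points lie above 0 and 14 below with age, and 3 above and 12 below in NR-treated aged minus aged HSC, whereas library totals gave 8 and 19, and 11 and 10.

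Genes of other fates, given for comparison, had their own counts. Of 18 myeloid commitment genes, 4 were called with age (22.2%, 3 higher and 1 lower), and with NR 9 (50.0%), all lower against aged HSC, among them Elane (-4.53) and Ctsg (-4.10), which encode neutrophil granule proteases. Of 19 megakaryocyte and platelet genes, 7 were called with age, 5 higher and 2 lower, and 3 with NR against aged HSC, 2 higher and 1 lower. The lower gene was Clu, at -1.01 with size factors of DESeq2 in place of TMM sizes (edgeR adjusted p = 0.0108). With age Selp rose by 3.03 and Clu by 3.39, and with NR both were also above young HSC, by 2.88 and 2.37 (edgeR adjusted p = 1.64e-10 and 1.98e-06).

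Whether members varied together between animals of one group was examined for the 4 members whose mean reached 10 CPM, as correlations of deviations from the group means of log2 CPM over 15 libraries. Of 6 pairs, none passed after Benjamini-Hochberg adjustment. The highest was Satb1 with Tcf3, with Pearson's r = 0.65 (permutation p = 0.0300, adjusted 0.180) and Spearman's rho = 0.59 (permutation p = 0.0528, adjusted 0.169). Without the 2 libraries farthest from the median of Satb1, r was 0.38. Satb1 with Ikzf1 gave r = 0.51 (permutation p = 0.0802, adjusted 0.241) and rho = 0.55 (permutation p = 0.0562, adjusted 0.169), and the other 4 pairs lay between 0.14 and 0.44 in r.

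Over the same 15 libraries, with the group differences left in, the genes most like each of these 4 members were listed among 9032 genes of at least 10 CPM. They were Scaf4 (r = 0.877) and Bcorl1 (0.862) for Satb1, Ppp1r15b (0.921) and Macf1 (0.912) for Ikzf1, Sf3a1 (0.935) and Mxd4 (0.910) for Tcf3, and Birc6 (0.908) and Cuedc1 (0.893) for Bcl11a. These are descriptions over libraries that share their groups and their depth.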

How the data were processed

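HSC of 15 mice were profiled by 3′-biased RNA sequencing with a 10 bp unique molecular identifier (UMI). Alignment by the authors used STAR 2.4.2a and the GRCm38 build. They dropped duplicated UMIs, assigned reads to GENCODE exons with featureCounts and deposited raw counts of 16154 genes with more than 5 reads and 2 CPM in at least 2 samples. The strand setting of the counting is not given in the sources used here. Because libraries are read from the 3′ end, levels are not compared between genes.

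Groups followed the sample labels. All 15 libraries (764119 to 13318989 counts) entered 1 fit in edgeR 4.0.16 (R 4.3.3), using TMM sizes and the group as sole factor. Quasi-likelihood p-values were adjusted by Benjamini-Hochberg across the table, and genes below 0.05 were called. SE is the log2 fold change divided by the square root of F. CPM uses TMM sizes. Up to 3 counts in a library were treated as not distinguishable from 0, a limit that covers counting error only. Single values and correlations used permutation tests (SciPy 1.17.1, NumPy 2.4.6, two-sided). Gene positions came from GENCODE M21 on GRCm38, and promoter sequences from RefSeq, which held all 9 members. No 2 libraries of a group were copies (chi-square per degree of freedom 3.00 to 16.7). Same-numbered libraries of different groups did not deviate together (mean r 0.00211, from -0.270 to 0.133), so they were not taken as pairs. In simulated counts with 200 of 16154 genes changed 2-fold between young and aged HSC, the test recovered 149 (74.5%), with 4.49% false calls. The changed genes were drawn only from genes above a minimum mean level. Dntt, Il7r, Notch1 and Rag1, with means of 1.61, 3.06, 4.34 and 1.12 CPM, lay below it. The recovery therefore does not apply to these members.

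The members and the lists were chosen with earlier results of these data known. All members are named in every comparison. From each list, at most 3 called genes per direction with the largest change and a mean of at least 10 CPM are named, and B lineage transcripts shown beside Dntt, Il7r and Rag1 were chosen after their values were seen. T and NK cell, plasma cell and plasmacytoid dendritic cell markers were also summed. Some genes that meet the naming rule are not reported here. Alternatives were the likelihood ratio test, DESeq2 1.42.0, limma 3.58.1 (voom), other scaling, fits of 2 groups, a count filter, thinned counts, a stricter threshold, a replicate block and the omission of libraries.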

Additional observations from a re-analysis of the deposited data

Results flagged for a closer look

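Dixon's test at its 95% critical value was applied to 48 sets of 5 libraries (the levels of the members and the summed marker levels in each group) and marked 7 of them, whereas chance marks about 1 set in 20. Among the members it marked Dntt in young HSC, where library 3 was at 9.43 CPM and the next library at 2.54 CPM. The same young library 3 was far above the others for the summed markers of B cells (847 CPM, next 235 CPM), plasma cells (83.5 CPM, next 22.8 CPM), T and NK cells (211 CPM, next 129 CPM) and neutrophils and monocytes (7705 CPM, next 1367 CPM). NR-treated aged library 5 was marked for neutrophil and monocyte markers (631 CPM, next 394 CPM) and erythroid markers (579 CPM, next 118 CPM), and it also held the highest Il7r level of its group, at 2.45 CPM.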

How the results depend on the processing

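The calls of Flt3 with age passed in all 10 other settings and in all 15 fits without 1 library. Satb1, Ikzf1 and Tcf3 passed in all 15 as well, and each lost its call in 1 setting, given in the report. The sparse members depended most on the settings, the cause was not tested, and their counts limit what can be seen.

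With age, 2 members were called with at least 10 counts in every library, where only 3 were tested, and 2 without young libraries 3 and 4. Over all genes 3120 calls became 1317 at an adjusted p under 0.01 (17 of the wider lists), 1597 after thinning, 1862 without young libraries 1 and 5 and 1875 without young 3 and 4. Without 1 library they ranged from 1953 (without aged 3) to 3533, the members from 4 to 5 and the wider lists from 21 to 28. Rag1 was the added member, as it also was with library totals. With library totals the called genes split into 1020 higher and 2485 lower with age (TMM 1564 and 1556) and 1246 higher and 344 lower with NR against aged HSC (TMM 627 and 676). The wider lists then split into 8 and 19, and 11 and 10, and the wider lists with the count filter into 9 and 15, and 6 and 6.

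Between aged and NR-treated aged HSC, 1 member, Dntt, was called by the likelihood ratio test, by DESeq2, in the fit of the 2 groups, with the replicate block, without young libraries 1 and 5 and without young 3 and 4. The 1303 genes became 208 at the stricter threshold (6 of the wider lists), 783 with the count filter and 466 after thinning. Without 1 library they ranged from 422 (aged 3) to 1535, with 607 without aged 5, 538 without NR-treated 3 and 534 without NR-treated 4, the members from 0 to 1, and the wider lists from 7 (aged 3) to 19, with 8 without NR-treated 3 or 4.

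Between NR-treated aged and young HSC, 1 member was called at the stricter threshold, by limma-voom and in the fit of the 2 groups, 4 by the likelihood ratio test and by DESeq2 (Satb1 and Rag1 added), and 0 with the count filter, after thinning and without young 3 and 4. The 722 genes became 310, 415 after thinning and 421 without young 3 and 4, and the wider lists 4 at the stricter threshold. Without 1 library, genes ranged from 452 (NR-treated 4) to 922, members from 1 to 4 (young 2) and the wider lists from 7 to 15.

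Signs turned for members that were not called. The fits without young 3 and 4 dropped most young counts of Dntt, Il7r and Rag1, with no matching omission of aged 3 and 4 together. With age, Dntt was at 0.80 by limma-voom, 0.41 after thinning, 0.039 with the replicate block, 1.53 without young 3 and 4, from -0.95 to 0.69 without 1 library, the latter without young 3, and 0.30 as a difference of log2 CPM in the exact permutation test. Il7r was at 0.24 by limma-voom, 2.12 without young 3 and 4 and from -1.19 to 0.64 without 1 library, the latter without young 3, Notch1 at -0.093 without young 1 and 5 and Rag1 at 0.97 without young 3 and 4. Between NR-treated and young HSC without young 3 and 4, Il7r was at 0.20, Notch1 at 0.12 and Bcl11a at -0.0021, and Bcl11a ranged from -0.092 to 0.11 without 1 library. The correlation of Tcf3 with Bcl11a ranged from -0.22 (without young 2) to 0.39, and that of Satb1 with Tcf3 ranged from 0.54 to 0.86, the latter without NR-treated 1 (adjusted permutation p = 0.0101).

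The replicate block, with 2836, 1048 and 589 genes called in the 3 comparisons, changed the call of no member except Dntt against aged HSC.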

Other observations

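Marker lists not set beside the members above showed the following. Plasma cell markers summed to 14.5 to 83.5 CPM in young, 81.3 to 458 CPM in aged and 7.62 to 23.4 CPM in NR-treated aged libraries, and 4 of 8 measured rose with age while 6 fell with NR against aged HSC. T and NK cell markers summed to 119 to 211, 215 to 263 and 149 to 226 CPM, with 1 of 10 called higher and 1 lower with age and 1 lower with NR. Plasmacytoid dendritic cell markers summed to 338 to 469.8, 390.4 to 499 and 297 to 419 CPM, with 0 of 6 called with age (by the edgeR quasi-likelihood test) and 1 lower with NR. Over all genes 19.3% were called with age and 8.07% with NR against aged HSC.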
